A study of Mus musculus with 12 samples.

Results

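The 10 genes described here code for acute phase proteins, most of which mouse liver makes in larger amounts during inflammation. Among the 10 are also targets of the transcription factor Stat3. The genes are the serum amyloid A genes Saa1, Saa2, Saa3 and Saa4, the acute phase proteins Orm2, Lcn2, Serpina3n and Apcs, the metal reductase gene Steap4 and the signalling inhibitor gene Socs3. All 10 had at least 1 array probeset annotated to that gene alone, and all 10 were among the 11899 genes tested after a filter on low values. Each gene was read from its brightest probeset, and the other probesets of a gene are given beside it. The livers came from male C57BL/6 mice obtained from Jackson Labs and kept on alternating 12 h of light and 12 h of dark. The 6 penicillin mice drank water with a low dose of the antibiotic after weaning, and the 6 control mice were given no antibiotic. Livers were resected after 7 weeks of intervention, and 1 Affymetrix array was run per mouse. The sources used here give no dose, cage, hour of collection or age at collection, so p-values treat the mice as independent.

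In the acute phase response, cytokines such as interleukin-6 and interleukin-1, made by macrophages and other cells, act on hepatocytes, the main cells of liver. Interleukin-6 binds its receptor with the shared subunit gp130, Janus kinases phosphorylate Stat3, and Stat3 enters the nucleus and works with C/EBP factors and NF-kappaB at the genes of secreted proteins. Socs3 is induced by Stat3 and closes the loop by inhibiting the kinases at gp130. In the mouse, serum amyloid A proteins, apart from that of Saa4, are among the most strongly inducible proteins of this response. So is the serum amyloid P component, the product of Apcs.

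No member passed the test for a change with penicillin. With all 12 arrays, 0 of 10 were under an adjusted p of 0.05 in limma's moderated test, against 0% of the 11899 genes tested, and without control 6 the count was again 0 of 10 against 0%. At an unadjusted p under 0.05 the limma test held 1 of 10 members, Socs3, against 7.98% of all genes. Control 6 held 9 of the 10 members at their highest level of the 12 arrays, and all but Saa3 were more than 2-fold above the mean of the other 5 controls there. Across all genes tested, 12.4% were highest in control 6 and 1.07% were more than 2-fold above the other controls there. All 10 members were lower in the penicillin mean than in the control mean with every array in, where 52.8% of all genes were higher. Once control 6 was left out, 7 of 10 were higher in the penicillin mean, against 53.7% of all genes. The median difference, penicillin minus control, was -0.42 for the members and 0.01 for all genes, and without control 6 it was 0.12 for the members and 0.01 for all genes. Values below are log2 intensities, and differences are log2 differences. Levels of different genes are not set against each other, because probes differ in brightness.

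**Figure D1:**
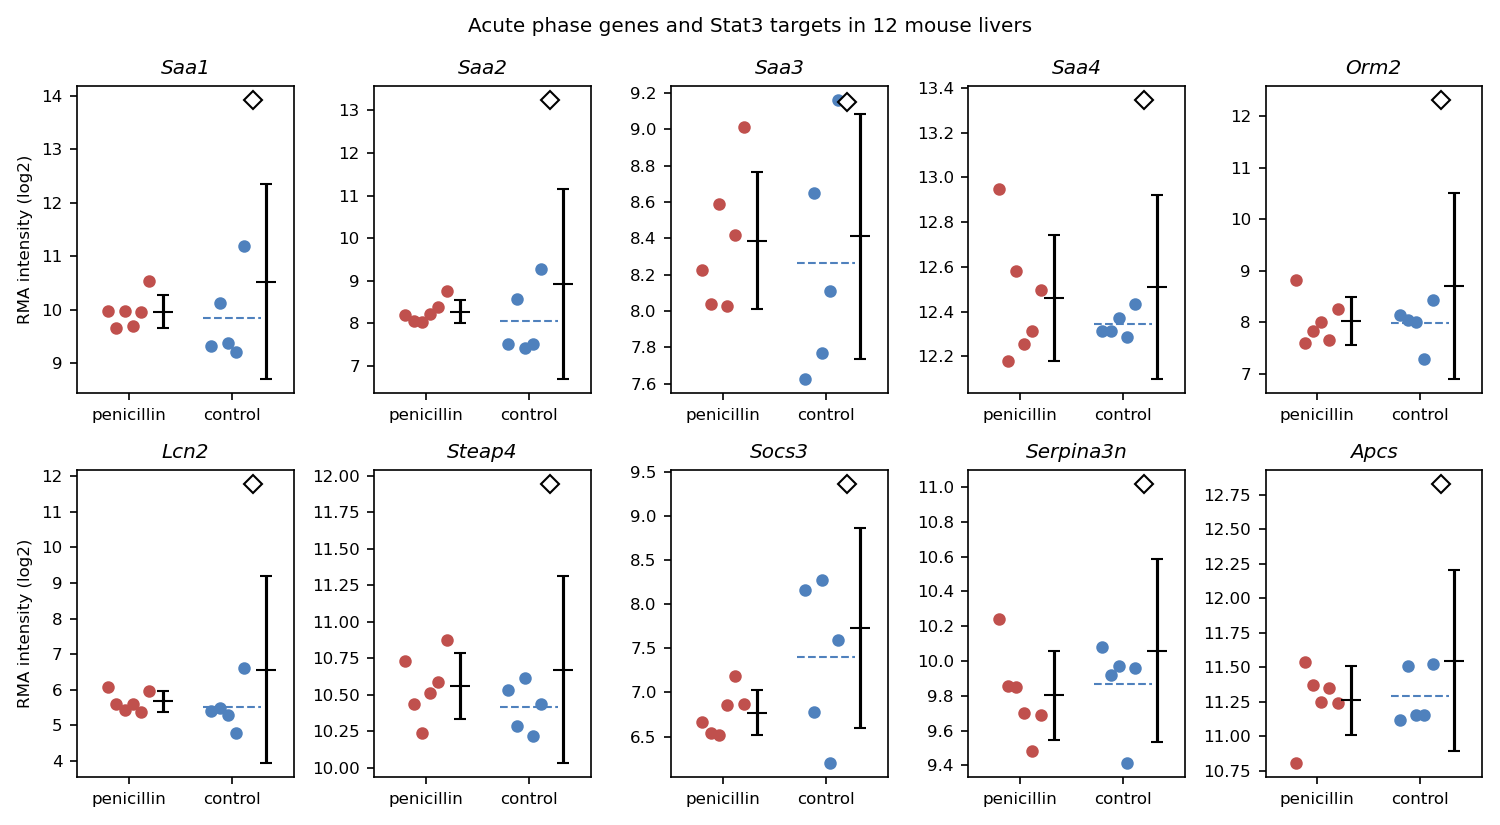
Log2 intensity of the brightest probeset of each of the 10 members, with 1 point per array and the penicillin arrays left of the control arrays. Control 6 is the open diamond, the black bar is the group mean with its SD (n = 6 each), and the dashed line is the control mean without control 6. The diamond stands above every other point for each gene but Saa3.

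The livers carried the RNA of their main cells. The hepatocyte markers Alb (albumin), Apoa1 (apolipoprotein A-I), Ttr (transthyretin), Cps1 (a urea cycle enzyme), Cyp2e1 (a cytochrome P450) and Hnf4a (a liver transcription factor) were all measured, and control 6 differed from the other controls by -0.08 to 0.06 on them. Whole liver pieces were measured, so that fewer cells of a type and less RNA per cell cannot be told apart. Transcripts of heart and striated muscle were also raised in control 6. Myl2, a ventricular myosin light chain, was at 9.12 in control 6, against 3.32 to 3.81 in the other 11 arrays. Of 14 such markers named after their values were seen, 9 were above all other arrays in control 6 and 8 more than 2-fold above the other controls. Nppa, the atrial natriuretic peptide gene, was not raised at 3.52 against 3.34 to 3.66. The markers Tnnt2, Myh7, Mb and Acta1 were not above all other arrays either, with Tnnt2 at 4.19 against 4.05 to 4.29. Immediate early genes, which respond within minutes to handling or stress, also set arrays apart. Their mean deviation from the average of the 11 arrays other than control 6, over 14 genes, was -0.83 to -0.58 in the penicillin arrays, 1.90, 1.97 and 1.31 in controls 1, 3 and 5, and -0.78 to -0.32 in controls 2, 4 and 6. The part that the muscle transcripts or the immediate early genes play in any result below was not tested.

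The 4 serum amyloid A genes lie together on chromosome 7 in GRCm38.p6, with Saa3 at chr7:46711998-46719615, Saa4 at chr7:46727992-46732603, Saa1 at chr7:46740497-46743181 and Saa2 at chr7:46751833-46754313. Saa1 and Saa2 code for inducible apolipoproteins carried on high density lipoprotein, and their RNAs are so alike that the array's probes may bind both. The windows around their start sites, shown because these genes had among the largest excess in control 6, run from 250 bases before a transcript start to 50 bases after it. For 6 of the 10 members that start is the start of the gene as printed here, and for the other 4, Saa1, Saa3, Socs3 and Serpina3n, it is another start inside the gene, at base 46742980 for Saa1. They are from RefSeq with the build GRCm38.p6, read 5′ to 3′ in the direction of the gene, and capitals mark matches to the motifs described further on. Of the aligned positions, 287 were identical and 12 were mismatched, with 2 gap positions and an identity of 96%. Saa1 (chr7:46742931-46743230, minus strand) and Saa2 (chr7:46751583-46751882, plus strand) read
Saa1: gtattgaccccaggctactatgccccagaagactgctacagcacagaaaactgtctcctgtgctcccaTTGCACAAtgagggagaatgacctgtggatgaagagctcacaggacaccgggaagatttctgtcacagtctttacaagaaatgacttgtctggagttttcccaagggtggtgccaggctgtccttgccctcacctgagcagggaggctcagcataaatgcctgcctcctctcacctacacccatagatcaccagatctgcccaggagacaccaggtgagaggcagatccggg
Saa2: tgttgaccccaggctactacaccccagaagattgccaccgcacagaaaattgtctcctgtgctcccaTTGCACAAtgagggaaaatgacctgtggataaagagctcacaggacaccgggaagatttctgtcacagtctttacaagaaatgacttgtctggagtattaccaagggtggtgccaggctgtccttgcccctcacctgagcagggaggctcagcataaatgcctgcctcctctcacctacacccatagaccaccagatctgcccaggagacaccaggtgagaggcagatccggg

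Saa1 had log2 intensities of 9.66 at the lowest, 9.96 at the median and 10.54 at the highest of the penicillin arrays, against 9.20, 9.75 and 13.93 in the control arrays. The groups overlapped, control 6 stood above all other arrays, and control 5 came next at 11.19. The mean was 9.97 ± 0.32 with penicillin and 10.52 ± 1.83 in controls (SD, n = 6 each), a difference of -0.56 (SE 0.67, 95% interval -1.99 to 0.88, limma adjusted p = 0.888). Without control 6 the control mean was 9.84 ± 0.84 (SD, n = 5) and the difference was 0.12 (95% interval -0.57 to 0.82, limma adjusted p = 0.932). Control 6 was 17.0-fold above the mean of the other 5 controls, and on a second probeset, whose transcript RefSeq lists as Saa2, it was 25.2-fold above them.

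Saa2 ranged from 8.02 to 8.76 in the penicillin arrays with a median of 8.21, against 7.41 to 13.24 with a median of 8.05 in the control arrays. The penicillin values fell inside the control range, and control 6 lay 3.98 above the next highest array, which was control 5. The difference was -0.65 (SE 0.81, limma adjusted p = 0.893) with all arrays and 0.21 (SE 0.31, limma adjusted p = 0.868) without control 6. In control 6 the gene was 36.4-fold above the mean of the other controls.

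Saa3 codes for an inducible serum amyloid A that macrophages and fat also make, and Saa4 for a form made constitutively by liver. Saa3 spanned 8.03 to 9.01 in the penicillin arrays with a median of 8.32, against 7.62 to 9.16 with a median of 8.38 in the control arrays. Its highest array was control 5 at 9.16, and control 6, at 9.15, lay 0.01 below it, so that Saa3 was the member that control 6 did not set apart. The difference, penicillin minus control, was -0.03 (SE 0.28, limma adjusted p = 0.989), and 0.12 without control 6 (SE 0.27, limma adjusted p = 0.918). Control 6 was 1.85-fold above the other controls. Among the 11 other arrays the 3 highest for Saa1, Saa2 and Saa3 were the same, namely control 5, penicillin 6 and control 2.

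Saa4 spanned 12.18 to 12.95 in the penicillin arrays with a median of 12.40, against 12.29 to 13.35 with a median of 12.34 in the control arrays. Apart from control 6 at 13.35 the controls lay within 12.29 to 12.43, and penicillin 1 at 12.95 was the next highest array. The difference was -0.05 (SE 0.18, limma adjusted p = 0.969), and 0.12 without control 6 (SE 0.12, limma adjusted p = 0.791). Control 6 was 2.00-fold above the other controls, a value just past the 2-fold line, and 2.77-fold on the second probeset.

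Orm2 and Lcn2 had the largest excess in control 6 beside Saa2. Orm2 codes for alpha-1-acid glycoprotein 2, a plasma protein that binds drugs, and Lcn2 for lipocalin 2, which withholds iron-carrying siderophores from bacteria. Orm2 lies at chr4:63362449-63365877 and Lcn2 at chr2:32384637-32387739. Their start-site windows, shown for the same reason as those of Saa1 and Saa2, run over chr4:63362199-63362498 on the plus strand for Orm2 and chr2:32387690-32387989 on the minus strand for Lcn2.
Orm2: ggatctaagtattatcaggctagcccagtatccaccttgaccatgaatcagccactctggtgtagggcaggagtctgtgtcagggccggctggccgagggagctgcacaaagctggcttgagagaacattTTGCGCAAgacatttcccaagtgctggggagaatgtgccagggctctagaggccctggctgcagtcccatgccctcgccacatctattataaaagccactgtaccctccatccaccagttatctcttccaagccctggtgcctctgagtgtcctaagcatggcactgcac
Lcn2: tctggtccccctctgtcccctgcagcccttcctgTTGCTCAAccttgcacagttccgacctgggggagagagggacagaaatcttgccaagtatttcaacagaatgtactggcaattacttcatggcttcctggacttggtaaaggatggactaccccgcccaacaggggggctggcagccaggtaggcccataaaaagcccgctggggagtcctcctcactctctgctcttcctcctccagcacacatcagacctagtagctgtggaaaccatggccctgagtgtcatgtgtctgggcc

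Orm2 had log2 intensities of 7.60 at the lowest, 7.92 at the median and 8.82 at the highest of the penicillin arrays, against 7.28, 8.09 and 12.32 in the control arrays. Penicillin 1 was the highest of the arrays other than control 6, and the groups otherwise overlapped. The difference was -0.68 (SE 0.67, limma adjusted p = 0.860) with all arrays and 0.05 (SE 0.24, limma adjusted p = 0.970) without control 6. Control 6 was 20.2-fold above the other controls.

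Lcn2 ranged from 5.37 to 6.07 in the penicillin arrays with a median of 5.61, against 4.80 to 11.78 with a median of 5.44 in the control arrays. Control 6 stood alone, 5.17 above the next array, while control 4 was the lowest of all 12. The mean was 5.67 ± 0.28 with penicillin and 6.56 ± 2.62 in controls (SD, n = 6 each), a difference of -0.89 (SE 0.95, 95% interval -2.93 to 1.16, limma adjusted p = 0.870). Without control 6 the control mean was 5.52 ± 0.67 (SD, n = 5) and the difference was 0.16 (95% interval -0.41 to 0.73, limma adjusted p = 0.888). The 76.7-fold excess of control 6 over the other controls was the largest among the 11899 genes tested.

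**Figure D2:**
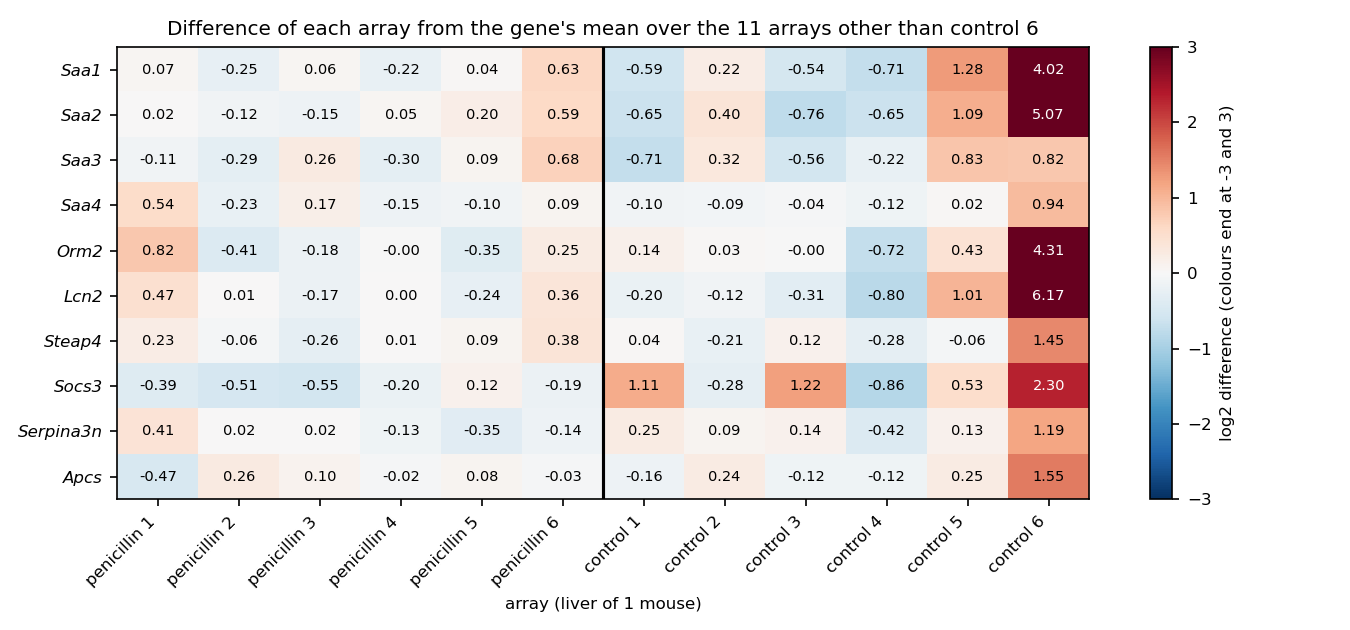
Difference of each member on each array from its mean over the 11 arrays other than control 6, in log2 units, with 1 row per gene, penicillin arrays left of control arrays, and the number printed in each cell. Control 6 is the column where 9 of the 10 members are highest, and Saa3 is the row where it is not.

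Serpina3n codes for a secreted inhibitor of serine proteases and lies at chr12:104406646-104414334. Its values ran from 9.48 to 10.24 in the penicillin arrays with a median of 9.77, against 9.41 to 11.02 with a median of 9.97 in the control arrays. Control 6 was highest and penicillin 1 next, and the groups overlapped. The difference was -0.26 (SE 0.21, limma adjusted p = 0.817), and -0.06 without control 6 (SE 0.14, limma adjusted p = 0.917).

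Apcs codes for serum amyloid P component, a pentraxin that coats amyloid and bacterial surfaces, and lies at chr1:172893961-172895054. Its values ran from 10.80 to 11.54 in the penicillin arrays with a median of 11.30, against 11.12 to 12.83 with a median of 11.33 in the control arrays. Penicillin 1 was the lowest of all arrays, and control 6 lay 1.29 above the next highest. The difference was -0.29 (SE 0.25, limma adjusted p = 0.830), and -0.03 without control 6 (SE 0.13, limma adjusted p = 0.963). Control 6 was 2.22-fold above the other controls for Serpina3n and 2.90-fold for Apcs.

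Steap4 and Socs3 are the members outside the secreted proteins. Steap4 codes for a membrane reductase of iron and copper that inflammatory cytokines induce in hepatocytes, and lies at chr5:7960472-7982213. Socs3 lies at chr11:117966079-117970336. Their windows are shown because they hold the STAT motif described further on, over chr5:7960222-7960521 on the plus strand for Steap4 and chr11:117969317-117969616 on the minus strand for Socs3. The Socs3 window lies around a start at base 117969366, inside the gene, and does not hold the gene's outermost start.
Steap4: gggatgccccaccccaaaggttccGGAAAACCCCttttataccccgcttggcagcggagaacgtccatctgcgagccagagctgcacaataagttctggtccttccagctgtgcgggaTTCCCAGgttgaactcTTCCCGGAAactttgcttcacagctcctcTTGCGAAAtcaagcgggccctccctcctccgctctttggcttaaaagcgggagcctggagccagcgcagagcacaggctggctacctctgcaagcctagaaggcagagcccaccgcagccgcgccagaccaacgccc
Socs3: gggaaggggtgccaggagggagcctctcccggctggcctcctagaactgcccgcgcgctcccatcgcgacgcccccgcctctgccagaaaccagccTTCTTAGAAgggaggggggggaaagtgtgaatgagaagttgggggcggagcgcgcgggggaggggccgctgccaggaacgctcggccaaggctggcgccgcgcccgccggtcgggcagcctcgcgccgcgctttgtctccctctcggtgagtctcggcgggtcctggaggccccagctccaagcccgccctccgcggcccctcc

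Socs3 differed from the other members in which arrays were high. Its values were 6.51 at the lowest, 6.76 at the median and 7.18 at the highest of the penicillin arrays, against 6.19, 7.88 and 9.36 in the control arrays. Controls 1, 3, 5 and 6 lay above every penicillin array, and controls 2 and 4 lay among them or below, with control 4 the lowest of all 12. Beside control 6, the 3 highest arrays were controls 3, 1 and 5 on each of the 3 Socs3 probesets, and these are the 3 controls with high immediate early genes. Part of this was seen in other members. Serpina3n and the second Steap4 probeset had controls 1 and 3, with penicillin 1, as the 3 highest. The mean was 6.77 ± 0.25 with penicillin and 7.73 ± 1.13 in controls (SD, n = 6 each), a difference of -0.96 (SE 0.42, 95% interval -1.86 to -0.05, limma adjusted p = 0.602).

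For Socs3 the unadjusted p with all arrays was 0.039 (limma). Without control 6 the difference was -0.63 (SE 0.33, 95% interval -1.35 to 0.09, limma adjusted p = 0.536), and no member was at an unadjusted p under 0.05, against 10.5% of all genes. Without controls 1, 3 and 5, a choice made after seeing the data, the difference was -0.67 (limma adjusted p = 0.996). Control 6, the highest array for Socs3, was still in that comparison. With controls 1, 3, 5 and 6 all left out, also a choice made after seeing the data, the Socs3 difference was 0.28. All of these controls lay above every penicillin array for Socs3, so that sign follows from the choice. Control 6 was 3.89-fold above the other controls on the brightest probeset, and 2.58-fold and 4.30-fold on the others.

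Steap4 ranged from 10.24 to 10.88 in the penicillin arrays with a median of 10.55, against 10.22 to 11.94 with a median of 10.48 in the control arrays. Control 6 lay 1.07 above the next highest array, penicillin 6, and the groups overlapped. The difference was -0.11 (SE 0.25, limma adjusted p = 0.945), and 0.15 without control 6 (SE 0.11, limma adjusted p = 0.712). Control 6 was 2.88-fold above the other controls, and 2.38-fold on the second probeset.

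**Figure D3:**
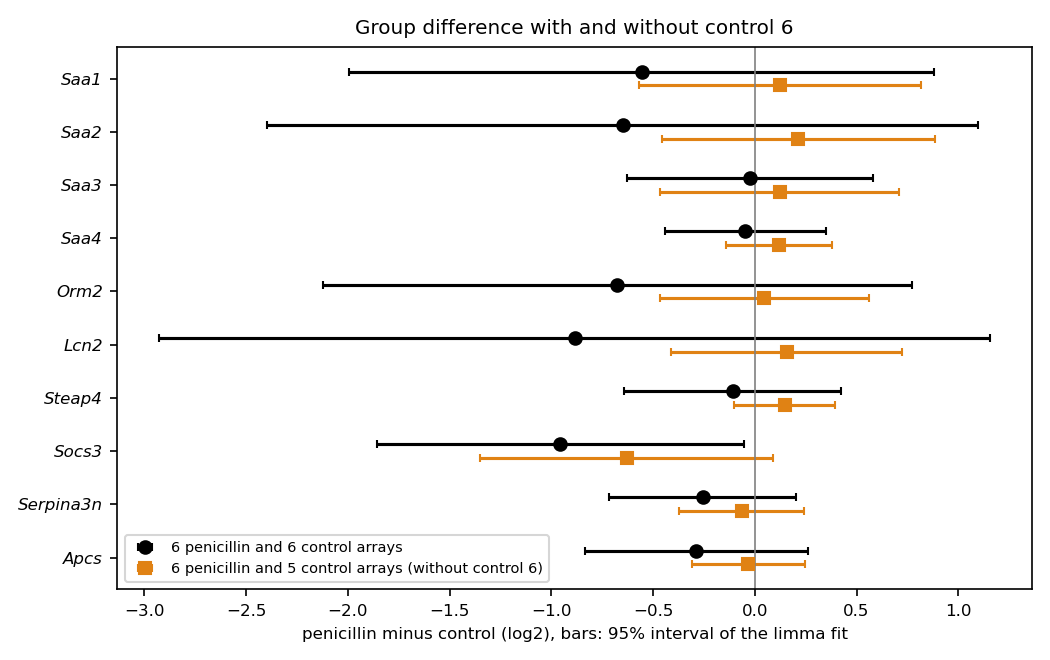
Difference of each member, penicillin minus control, in log2 units with its 95% interval, for all 12 arrays (black circles, n = 6 and 6) and without control 6 (orange squares, n = 6 and 5). All intervals cross 0 but that of Socs3 with all arrays, and without control 6 the squares lie closer to 0 for 7 of the 10 genes.

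No member had every penicillin array on 1 side of every control array, a pattern found in 0.412% of all genes tested. The members varied more between arrays than most genes did, with a median SD over the 12 arrays of 0.73 against 0.15 for all genes, and over the 11 arrays without control 6 of 0.45 against 0.15. The median excess of control 6 over the other controls was 1.75 for the members and 0.02 for all genes.

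Letters known from sites of acute phase factors were searched on both strands of the 10 windows, with the windows in view when the letters were chosen. The C/EBP motif TTGCNNAA stood in 7 of 10 member windows, those of Saa1, Saa2, Saa3, Saa4, Orm2, Lcn2 and Steap4, and in 10.8% of 32851 windows of all genes. The STAT motif TTCNNNGAA stood in 3 of 10, those of Steap4, Socs3 and Apcs, and in 8.3% of all windows. The acute phase element CTGGGAA stood in 2 of 10, those of Steap4 and Apcs, and in 11.1% of all windows. A 10-letter NF-kappaB motif stood in 2 of 10, those of Steap4 and Serpina3n, and in 4.79% of all windows. No 2 matches overlapped. Saa1 and Saa2 are near copies, so their matches are not separate observations, and a match shows letters only.

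The remaining genes of the acute phase pathway were read in the same arrays. Of 29 other acute phase genes listed, 21 were measured and 0 passed the limma test at an adjusted p of 0.05. At an unadjusted p under 0.05, 6 of 21 were lower and 0 higher with penicillin, where 7.98% of all genes were under it in either direction, and the median difference was -0.13 against 0.01 for all genes. Without control 6, 3 of 21 were at an unadjusted p under 0.05 against 10.5% of all genes, 14 were lower and 7 higher, and the median was -0.07. The smallest p-values were those of Crp and Cd14. Crp, which codes for C-reactive protein and is only weakly inducible in mice, had a difference of -0.19 (limma adjusted p = 0.570), and Cd14, a coreceptor for bacterial lipopolysaccharide, of -0.40 (limma adjusted p = 0.571).

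Control 6 was the highest array for 17 of these 21 genes and more than 2-fold above the other controls for 5 of them. Orm3, a paralog of Orm2, was at 8.75 in control 6, against 5.64 to 7.02 in the other 11 arrays. Fgl1, a hepatocyte fibrinogen-like protein, was at 13.77, against 11.38 to 12.17, and Lrg1, a leucine-rich glycoprotein, at 13.84, against 12.32 to 12.94. The metallothionein genes Mt1 and Mt2, whose products bind zinc, were highest in control 6 at 13.84 and 12.57, but ranged from 8.30 to 13.16 and from 6.66 to 12.00 over the other 11 arrays. Controls 1 and 3 were close to control 6 for both, and control 4 was the lowest array. Not all acute phase genes were higher there, and for Crp the difference of control 6 was -0.05 and for Cd14 -0.01. Hamp, which codes for hepcidin, was at 13.28 in control 6, inside the 12.93 to 13.64 of the other 11 arrays.

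Of 10 negative acute phase genes listed, those whose products fall in inflammation, 8 were measured and 0 passed. Ahsg, which codes for fetuin-A, had a difference of -0.14 (limma adjusted p = 0.571) and Serpina6, which codes for corticosteroid-binding globulin, of 0.35 (limma adjusted p = 0.676). None was more than 2-fold higher or lower in control 6, and the range over the 8 was -0.16 to 0.66. These genes varied little between arrays at all, with a median SD over the 12 arrays of 0.05 against 0.15 for all genes.

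**Figure D4:**
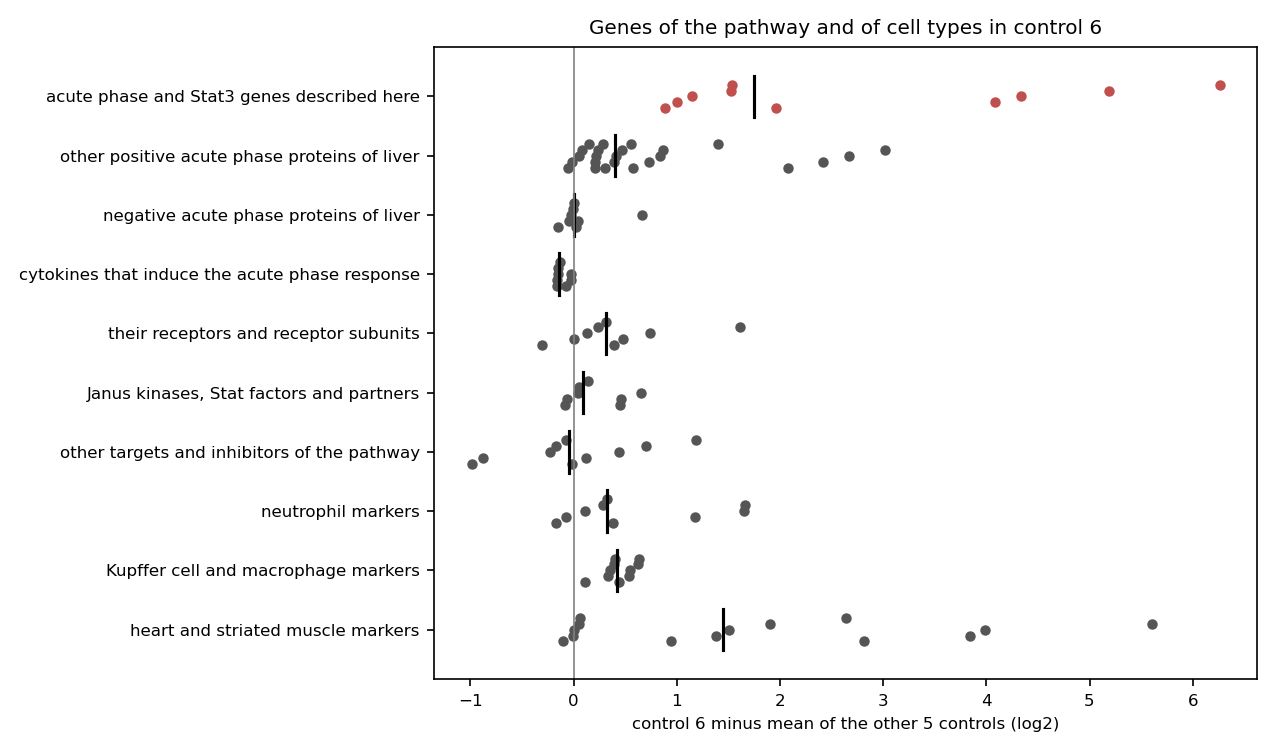
Difference of control 6 from the mean of the other 5 controls, in log2 units, with 1 point per gene, 1 row per gene list, a vertical bar at the median, and genes under the filter included. The members reach 6.26 with Lcn2 and the heart and striated muscle markers 5.61 with Myl2, while the negative acute phase genes lie within -0.16 and 0.66.

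Among 9 cytokine ligands listed, 3 passed the filter, and 0 of these passed the limma test or were at an unadjusted p under 0.05. Il6, which codes for interleukin-6, did not pass it and was at 2.88 in control 6, against 2.90 to 3.43 in the other 11 arrays. Of the 9 receptors, all measured, 0 passed. Il1r1, the receptor of interleukin-1, was at 9.61 in control 6, against 7.17 to 8.36 elsewhere, an excess of 1.61 over the other controls. Osmr, the oncostatin M receptor, was 0.74 above them, and Il6st, the shared gp130 subunit, 0.48. Penicillin minus control, Il6ra, the interleukin-6 receptor, had a difference of -0.45 (limma adjusted p = 0.668) and Osmr of -0.37 (limma adjusted p = 0.592).

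Of 10 genes of the kinase and Stat step, 8 were measured and 0 passed. Stat3 itself had values of 9.35 to 9.72 in the penicillin arrays, against 9.66 to 10.35 in the control arrays. Control 4 was the 1 control inside the penicillin range, and control 6 was highest. The difference was -0.40 (SE 0.11, limma adjusted p = 0.444), and -0.33 without control 6 (limma adjusted p = 0.327). Rela, a subunit of NF-kappaB, had -0.23 (limma adjusted p = 0.570). Cebpd, a C/EBP factor, stood 0.66 above the mean of the other controls in control 6. Its level there was 8.77, against 7.49 to 8.70 in the other 11 arrays, with control 5 at 8.70.

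Of 10 feedback genes and Stat3 targets listed, 9 were measured and 0 passed. Nfkbiz, an NF-kappaB cofactor induced in inflammation, had -0.73 (limma adjusted p = 0.567) and -0.61 without control 6. It was at 6.78 to 7.38 in the penicillin arrays, at 8.13 to 8.46 in controls 1, 3, 5 and 6, which were also the controls high for Socs3, and lower in controls 2 and 4. The list was mixed in control 6. Pim1, a kinase gene induced by Stat3, was 1.19 above the other controls there, at 7.97 against 6.07 to 7.80 in the other 11 arrays. Socs2 and Cish, inhibitors of cytokine signalling through Stat5, were at -0.99 and -0.88 relative to the other controls, and the median over the 9 genes was -0.02.

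Neutrophils carry part of this response, and Lcn2 is also a neutrophil granule protein. S100a8 and S100a9, the subunits of calprotectin, were lower in every penicillin array than in every control array, by -1.94 (SE 0.42, limma adjusted p = 0.304) and -1.63 (SE 0.35, limma adjusted p = 0.299). Such separation was found in 0.412% of all genes tested, and for S100a9 the nearest values were 5.78 with penicillin and 5.82 in controls. Without control 6 the differences were -1.66 and -1.36. Beside control 6, controls 1, 3 and 5 were the highest arrays for both genes. Without controls 1, 3, 5 and 6, a choice made after seeing the data, the differences were -0.92 and -0.78. The arrays left out are the highest for both genes, so smaller differences follow from the choice. The mean deviation over the 9 neutrophil markers named was -0.32 to -0.07 in the penicillin arrays, 0.02 to 0.40 in the other controls and 0.81 in control 6. S100a8, S100a9 and Ngp, a granule protein, were more than 2-fold above the other controls in control 6, while the granule enzymes Mpo, at 4.41, and Elane, at 3.98, were not raised. Kupffer cell markers, 10 in all, had a mean deviation of -0.24 to 0.19 in the penicillin arrays, -0.17 to 0.27 in the other controls and 0.44 in control 6. What part of the members' levels these cells carry was not tested.

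**Figure D5:**
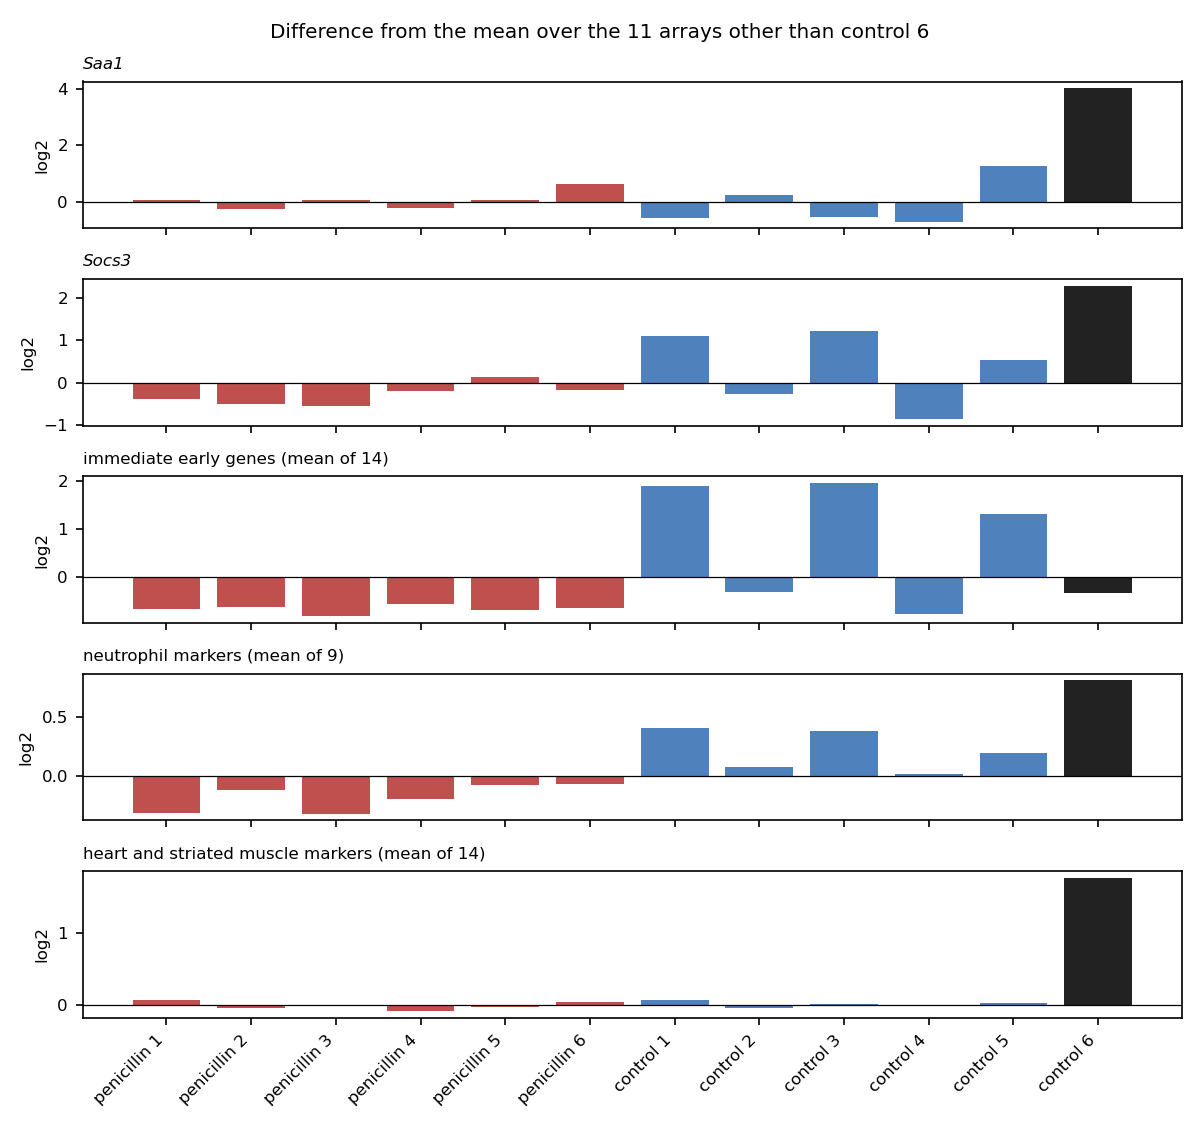
Bars give, per array, the log2 difference from the mean over the 11 arrays other than control 6, penicillin left of control, for Saa1, Socs3 and the means of the immediate early, neutrophil and heart and striated muscle lists. Controls 1, 3 and 5 stand out for immediate early genes at 1.31 to 1.97 and are high for Socs3 too, and control 6 stands out in every panel but that of the immediate early genes.

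Among non-members tested, the 5 furthest above the other controls in control 6 were Prtn3 (5.40), a neutrophil protease gene, Actc1 (3.84), cardiac actin, Scara5 (3.30), a ferritin receptor, Dbp (3.24), a clock output factor, and Mt2 (3.01). The 5 furthest below were Elovl3 (-3.09), a fatty acid elongase, Arntl (-3.06), a clock activator, Egr1 (-3.06), an immediate early factor, Tubb2a (-2.96), a tubulin, and Nr4a1 (-2.82), a nuclear receptor. Dbp stood at 11.96 in control 6 and at 11.96, 12.05 and 12.05 in penicillin 1, 5 and 6, against 6.44 to 10.68 in the others, so that its level sets apart arrays of both groups.

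The genes most like the mean of the members were found by Pearson correlation, given here as a description with no test. Over the 12 arrays they were Prg4 (r = 0.970), which codes for the lubricant proteoglycan 4, Myl3 (0.970), a myosin light chain, Orm1 (0.963), the acid glycoprotein 1, Cox6a2 (0.963), a muscle cytochrome oxidase subunit, and Serpina10 (0.950), a protease inhibitor. These points share control 6, which is far from the rest. Over the 11 arrays without it they were Etv4 (0.917), an ETS factor, Selenof (0.883), a selenoprotein, Stard9 (0.881), a kinesin-like protein, Fbln2 (0.875), a matrix protein, and an immunoglobulin kappa variable segment (0.860). All of these but Selenof had low values, 4.42 to 5.60 over the 11 arrays, near the filter at 4.7324. Such genes were picked as the highest r among all non-members tested, over few arrays.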

How the data were processed

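Per the submitters' processing notes, the authors made the deposited probeset intensities with RMA, which subtracts background, gives all arrays 1 distribution and combines the probes of a probeset. The deposited intensity values were linear, so log2 was taken here, and nothing else was normalized. The RMA software and its version are not given in the sources used here. Of 45037 probesets other than controls, 34945 had 1 annotated gene, 932 several and 9160 none. Symbols were updated through RefSeq (18032 gene identifiers found, 162 not). Probesets with a mean log2 intensity under the median of 4.7324 were left out, and the brightest probeset stood for each of the 11899 genes left.

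Groups were compared with limma 3.58.1 in R 4.3.3 (lmFit and eBayes), with Benjamini-Hochberg adjustment over all genes tested, for all 12 arrays and without control 6. The fit was also run on simulated data with independent normal values and no outlying array, which does not cover an array like control 6. No array was a copy of another (pairwise r 0.980 to 0.997). The number of arrays limits precision. Named genes were all members, per list the 2 with the smallest p and up to 4 furthest from the other controls in control 6, the 5 highest and 5 lowest non-members there, and the 5 most like the member mean. Other genes were chosen after their values were seen, among them the heart and striated muscle list. The members and lists were chosen with earlier results of these data known. Alternatives covered filters, probeset means, quantile normalization, variance priors, array weights, a replicate block and left-out arrays.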

Additional observations from a re-analysis of the deposited data

Results flagged for a closer look

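In 20 groups of 6 values, 2 for each member's brightest probeset, 7 had a lowest or highest array far from the rest by Dixon's ratio. Chance gives about 1 in 20 for separate groups. These groups share arrays, and the members were chosen with earlier results known, so the count does not measure an excess over chance. In 6 of the 7 that array was control 6. Its log2 intensity was 13.24 for Saa2, 13.35 for Saa4, 12.32 for Orm2, 11.78 for Lcn2, 11.94 for Steap4 and 12.83 for Apcs, each the highest of the 6 controls. For Saa1 the array was penicillin 6, at 10.54 against 9.66 to 9.98 in the other 5 penicillin arrays. Control 6 was also the highest control for Saa1, Socs3 and Serpina3n, without passing Dixon's value.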

How the results depend on the processing

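No gene and no member passed an adjusted p of 0.05 under any alternative run. The smallest adjusted p over all genes was 0.0732, in the fit with the replicate number as a block, and 1214 genes were at an unadjusted p under 0.05 there, against 950 without the block. The labels name no litter or batch behind the numbers, and for 2 of the 6 numbers the arrays deviated most alike with their own number, so the numbers were not taken as pairs. Across members, the smallest adjusted p was 0.602 with all arrays and 0.312 to 0.878 with each array left out in turn. Leaving out 1 array in turn gave Saa1 differences of -0.82 to 0.12, Saa2 of -0.95 to 0.21, Saa3 of -0.18 to 0.12, Saa4 of -0.14 to 0.12, Orm2 of -0.96 to 0.047, Lcn2 of -1.24 to 0.16 and Steap4 of -0.20 to 0.15, with the highest value without control 5 for Saa3 and without control 6 for the others. With array weights, Saa3 was 0.036. Settings chosen after seeing the data also turned signs. Without control 6 and with the replicate block, the differences were 0.0090 for Saa1, 0.12 for Saa2, 0.11 for Saa4, 0.00058 for Orm2, 0.10 for Lcn2 and 0.083 for Steap4. Without controls 1, 3, 5 and 6 they were 0.30 for Saa1, 0.23 for Saa2, 0.0043 for Saa3, 0.16 for Saa4, 0.37 for Orm2, 0.53 for Lcn2, 0.31 for Steap4, 0.14 for Serpina3n, 0.28 for Socs3 and 0.082 for Nfkbiz. For Socs3 and Nfkbiz these 4 are the controls above every penicillin array, so their signs follow from the choice and show no dependence on processing. Without control 6 and penicillin 1, 5 and 6 they were 0.044 for Saa2, 0.033 for Lcn2 and 0.10 for Apcs. The settings just listed all left out control 6. Leaving out control 6 alone had already turned Saa1, Saa2, Saa3, Saa4, Orm2, Lcn2 and Steap4, so their turns here are not separate observations. The cause of the remaining turns was not tested. Set against all 11 other arrays, the excess of control 6 for Saa4 was 0.94, which leaves 8 of 10 members past 2-fold.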
